A study of Mus musculus with 23 samples.

Results

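The genes described here are a list of 50 that copy DNA, divide the cell or hold the cell cycle in check. The list is one of names, chosen with earlier results of these data known, and 49 of the 50 had an Affymetrix probe set assigned to them alone, out of 18193 genes so represented. All 49 lay above the filter on dim genes in at least 1 group, so all 49 were among the 12516 genes tested, and 33 lay above it in every group. Ccnb1 had no probe set named for it alone and has no value here.

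The 23 arrays hold RNA from CD4+ T cells of mice in 9 groups of 2 to 4 arrays, which set regulatory T cells (Treg cells, which carry the transcription factor Foxp3) of different origin beside each other and beside Foxp3- or CD25- partner cells. C57BL/6-Foxp3/GFP mice, whose Foxp3+ cells are marked by green fluorescent protein, gave Treg and Foxp3-GFP- conventional cells (Tconv) of the lamina propria, the tissue under the gut lining (LP, 2 arrays each). The same strain gave 3 Treg subsets of the peripheral lymph nodes, CD103-Klrg1-, CD103+Klrg1- and CD103+Klrg1+ (2 arrays each). The homeostatic groups are Foxp3-GFP+ and Foxp3-GFP- cells (3 arrays each) taken out of spleen and lymph nodes on day 14 after transfer: Foxp3-GFP- CD4+ cells of BDC2.5/NOD mice, which carry a T cell receptor transgene, had gone by vein into NOD RAG-/- hosts. Such hosts lack T and B cells of their own, and transferred T cells expand in them. In the DEC groups, CD4+CD25- cells of HA6.5/Thy1.2/RAG-/-/Balb/c mice were put into Balb/c hosts given 1 dose of 50 ng DEC-HAPeptide, and CD25+ (3 arrays) and CD25- cells (4 arrays) were sorted from spleen and lymph nodes after 3 weeks, by CD25 and not by Foxp3. Every sort took CD3+ B220- CD8a- CD11b/c- CD4+ cells of mice aged 6 to 10 weeks, all labelled male. Each array holds a pool of mice, 4 to 6 for LP and lymph node, 2 to 3 for homeostatic and 5 to 10 for DEC cells, so the spread between arrays is a spread between pools.

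A dividing cell passes from G1, where D cyclins act, into S phase, where E cyclins and E2F factors start DNA replication at origins licensed by Cdc6, Cdt1 and the Mcm2-7 helicase. In G2 and mitosis, Cdk1 with cyclins A and B, the aurora and polo kinases, kinesins and the spindle checkpoint separate the chromosomes, and the inhibitors Cdkn1a (p21), Cdkn1b (p27) and Cdkn2c (p18) oppose the cyclin-dependent kinases. Resting T cells hold most of these transcripts low, and a T cell that answers antigen or finds itself in an empty host raises them. In RNA of bulk cells, more cycling cells and more RNA per cell cannot be told apart.

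Transcription of these genes is known to be timed through short promoter elements: E2F sites in genes of the S phase, and CCAAT boxes with the cell cycle homology region (CHR, TTTGAA or TTCGAA) in genes of mitosis. RefSeq windows of 300 bases on GRCm38.p6, from 250 before to 50 after the start of transcription, were at hand for 42 of the 50 genes, Ccnb1 included. In the 22 mitosis genes among them 16 windows (72.7%) held a CHR on either strand, against 3 of 16 (18.8%) replication and S phase genes and 16.7% of the 10114 genes with a window that were tested on the arrays. An E2F core, TTCCCGC or TTGGCGC, stood in 8 of the 16 replication genes (50.0%) and 3 of the 22 mitosis genes (13.6%), against 13.3% of the tested genes. CCAAT stood in 17 of 22 mitosis genes (77.3%), 9 of 16 replication genes (56.2%) and 42.1% of the tested genes. TTGGCGC read on the other strand can share letters with CCAAT, and a match is a description of the letters only. The 150 bases before the start of 5 genes are printed as examples on the gene's own strand, 5′ to 3′. Matches on either strand are in capitals (a match on the other strand reads as its reverse complement). The genes are the helicase subunits Mcm5 (chr8:75109359-75109508, plus strand) and Mcm6 (chr1:128359706-128359855, minus), the proliferation marker Mki67 (chr7:135716380-135716529, minus), and Cdc20 (chr4:118437344-118437493, minus) and Ube2c (chr2:164769779-164769928, plus), which work with the anaphase promoting complex.
Mcm5: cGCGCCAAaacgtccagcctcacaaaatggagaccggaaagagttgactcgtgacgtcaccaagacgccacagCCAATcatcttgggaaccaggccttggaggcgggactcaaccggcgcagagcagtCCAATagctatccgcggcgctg
Mcm6: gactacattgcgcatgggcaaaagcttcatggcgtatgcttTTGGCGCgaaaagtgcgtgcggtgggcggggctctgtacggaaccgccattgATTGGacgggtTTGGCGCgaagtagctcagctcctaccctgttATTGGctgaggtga
Mki67: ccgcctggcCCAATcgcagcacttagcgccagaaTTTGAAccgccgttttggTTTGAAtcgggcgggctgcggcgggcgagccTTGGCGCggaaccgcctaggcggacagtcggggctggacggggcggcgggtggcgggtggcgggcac
Cdc20: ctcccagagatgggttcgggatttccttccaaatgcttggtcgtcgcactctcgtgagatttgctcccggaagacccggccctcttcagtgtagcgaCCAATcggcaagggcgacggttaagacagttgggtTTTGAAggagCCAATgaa
Ube2c: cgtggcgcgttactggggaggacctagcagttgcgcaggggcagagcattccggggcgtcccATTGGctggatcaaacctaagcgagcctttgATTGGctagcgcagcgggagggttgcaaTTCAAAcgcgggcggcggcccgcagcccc
The Mcm5 and Mcm6 stretches hold E2F cores and CCAAT but no CHR. In Cdc20 the CHR lies 18 to 13 bases before the start, between CCAAT boxes, and in Ube2c 29 to 24 bases before it. Mki67 holds 2 CHR matches, 1 CCAAT and 1 E2F core. Not every mitosis gene has a CHR in this stretch: in Plk1 and Ccnb2, not printed, it holds 1 and 3 CCAAT boxes only. Their CHR matches lie elsewhere in the 300-base window. The start is the one RefSeq's window uses; the gene's outer bounds reach further, so that the last 41 bases of the Mcm5 and 71 of the Mki67 stretch lie within them.

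The median intensity of an array lay between 63.7 and 81.1. The dim arrays named below are DEC CD25- replicates 3 (68.5) and 4 (63.7), and the list counts of comparisons with DEC CD25- cells are also given without them. Replicate 3 also stood apart in RNA quality: the Gapdh 3′ probe sets exceeded the 5′ ones by 6.59 on the log2 scale, against 1.63 to 3.92 on the other arrays, and its mean correlation with its group was 0.884. T cell markers were present in all groups, with Cd3e at group means of 11.19 to 11.73, but the mean over the list of 8 fell to 9.66 on DEC CD25- replicate 3, where the other arrays of that group lay at 11.18 to 11.52. Foxp3 stood at 10.42 in homeostatic Foxp3+ and 4.76 in Foxp3- arrays, as their sort asked, and at 10.47 in DEC CD25+ and 7.97 in DEC CD25- arrays. Although all mice were labelled male, Xist, the transcript of the inactive X chromosome, lay at 11.85 to 13.25 on the 7 DEC arrays and at 6.47 to 7.67 on the other 16.

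Over the 9 groups, 42 of the 49 genes differed (F test of limma, adjusted p under 0.05), against 46.4% of all genes tested. In 41 of the 49 the highest group mean was that of the homeostatic Foxp3+ cells, and in 36 the homeostatic groups held both of the highest means. The lowest mean was that of DEC CD25- cells in 26 genes and of lymph node CD103-Klrg1- cells in 7. For these ranks no share over all genes was computed. DEC CD25- means were low in general: DEC CD25+ cells had the higher mean in 73.2% of all genes tested, homeostatic Foxp3- cells in 68.9%. Averaged over the 49 genes, log2 intensity was 9.73, 9.62 and 9.79 on the homeostatic Foxp3+ arrays and 8.94, 9.38 and 9.0 on the Foxp3- arrays. The other arrays lay lower on this average, from 7.51 on DEC CD25- replicate 3 to 8.85 on CD103+Klrg1+ replicate 1. In 27 genes each homeostatic Foxp3+ array was above all 17 arrays outside the homeostatic groups, which held for 6.15% of all genes tested.

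**Figure D1:**
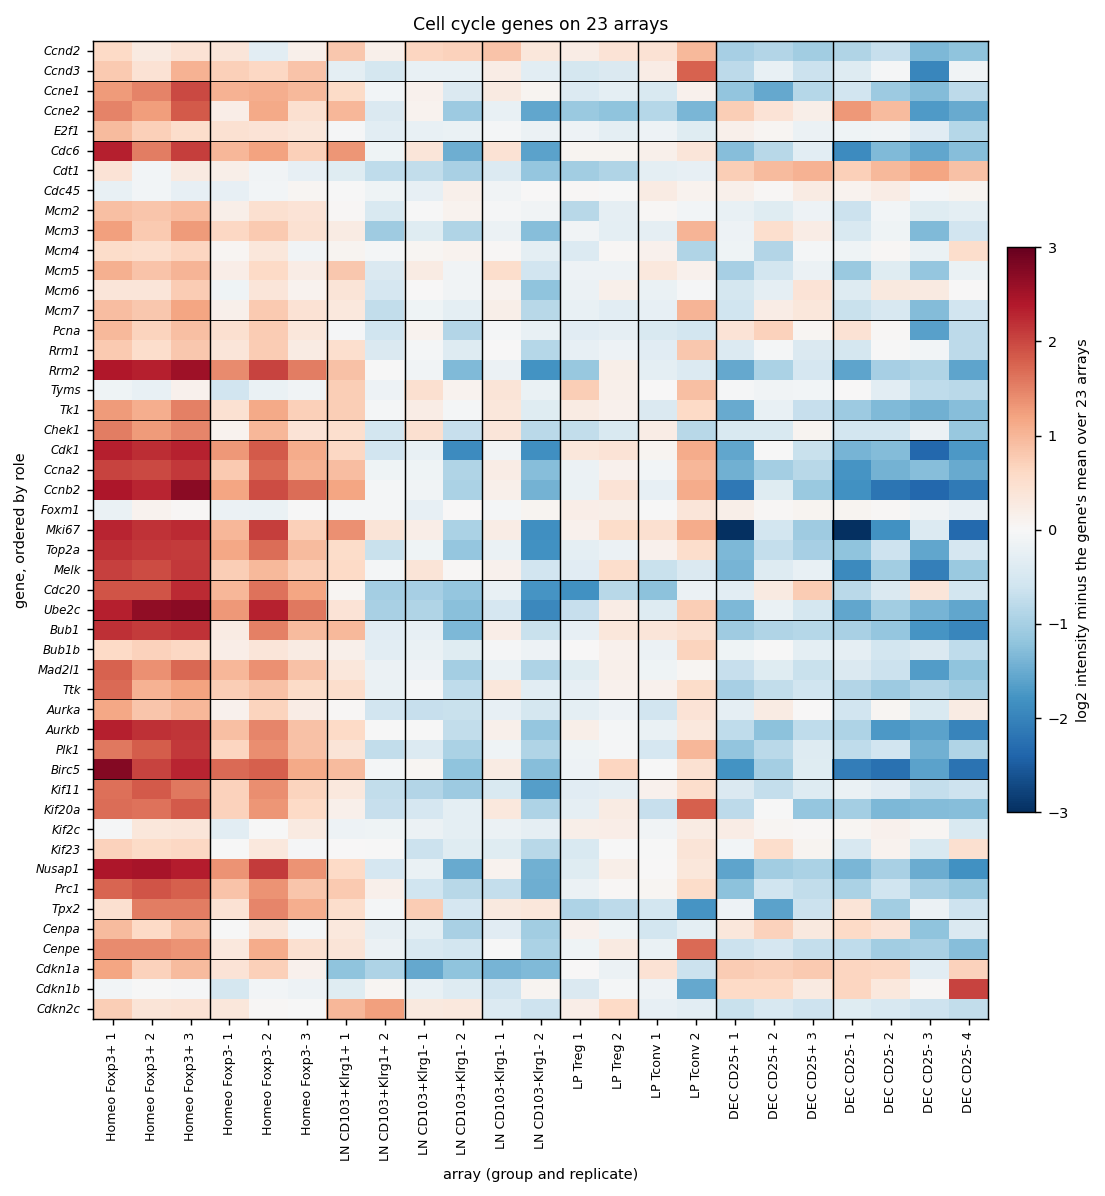
Log2 intensity of 49 cell cycle genes (rows, ordered by role from G1 cyclins to inhibitors) on 23 arrays (columns), each gene shown as its difference from its own mean over all arrays. The 3 homeostatic Foxp3+ columns are red for most genes and the DEC columns blue for most mitosis genes, while Cdt1 and Cdkn1b lie above their own means in the DEC columns.

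Homeostatic Foxp3+ cells were set against lymph node CD103-Klrg1- Treg cells, to put cells that gained Foxp3 in hosts without lymphocytes beside Treg cells of an intact mouse. Genes of every stage from E cyclins to cytokinesis were higher in the homeostatic cells: 37 of 49 rose and 0 fell, where 6.40% of all 12516 genes rose and 7.01% fell (limma, adjusted p under 0.05; 801 and 877 genes, or 1087 and 795 after quantile normalization, which called 40 of the 49). The median difference of the 49 was 1.5 on the log2 scale, against 0.03 over all genes tested. In 44 genes every homeostatic Foxp3+ array lay above every CD103-Klrg1- array, which held for 29.7% of all genes tested. The reverse held for 0 of the 49 and for 28.7% of all genes. Strain, receptor transgene, host, organ and pool size differ with the groups here and cannot be told apart.

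The 3 tested genes of S phase entry all rose. Ccne1, cyclin E1, lay at 10.14, 10.34 and 10.83 on the homeostatic Foxp3+ arrays and at 9.13 and 8.94 on the CD103-Klrg1- arrays, a rise of 1.40 ± 0.28 (SE, n = 3 and 2, adjusted p = 0.00252). Ccne2, cyclin E2, rose by 2.41 ± 0.73 and E2f1, a transcription factor that turns on S phase genes, by 0.85 ± 0.20. The D cyclins, which act earlier, did not pass the test: Ccnd2 was at 12.65, 12.32 and 12.48 against 12.91 and 12.39, so the arrays overlapped, and Ccnd3 differed by 0.80 ± 0.46 (adjusted p = 0.286).

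Of the 9 licensing and origin firing genes 5 rose. Cdc6, which loads the helicase onto origins, was at 9.22, 8.43 and 8.97 against 7.32 and 5.29, a rise of 2.57 ± 0.54 (adjusted p = 0.004). Its 2 CD103-Klrg1- values lie far apart, and both are below all 3 homeostatic values. The helicase subunits Mcm2, Mcm3 and Mcm7 rose by 0.95 ± 0.20, 1.82 ± 0.43 and 1.29 ± 0.40. Mcm5 lay at 11.21, 11 and 11.17 against 10.66 and 9.56, a difference of 1.02 ± 0.37 that did not pass (adjusted p = 0.0817), and Mcm4 (0.69 ± 0.29) and Mcm6 (1.05 ± 0.35) did not pass either. Cdt1, the partner of Cdc6 in loading, rose by 0.98 ± 0.22.

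At the fork and in the supply of nucleotides, Rrm2 had the largest difference. Rrm2, the S phase subunit of ribonucleotide reductase, lay at 12.65, 12.58 and 12.79 on the homeostatic arrays and at 10.07 and 8.45 on the CD103-Klrg1- arrays. The rise was 3.41 ± 0.47, or 10.6-fold (adjusted p = 1.07e-04). Its partner subunit Rrm1 rose by 1.12 ± 0.34 and the thymidine kinase Tk1 by 1.31 ± 0.35, while Pcna, the sliding clamp, differed by 0.99 ± 0.42 and did not pass (adjusted p = 0.138). Chek1, the kinase that answers stalled forks, rose by 1.66 ± 0.43.

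Genes of mitotic entry, mitotic kinases and the spindle differed more by their medians than licensing genes. The median difference was 1.02 over the 9 licensing genes and 3.05 over 7 genes of mitotic entry. It was 2.54 over the 4 mitotic kinases and passenger genes and 2.03 over 7 spindle and cytokinesis genes. Replication and mitosis as a whole overlapped: Ccne2 and Rrm2 rose by 2.41 and 3.41, and the spindle checkpoint gene Bub1b by 0.72. Probe sets differ in how far they compress a change, so these medians describe the array values only. Mki67, the gene of the proliferation marker Ki-67, lay at 11.97, 11.86 and 11.93 against 9.90 and 7.85, a rise of 3.05 ± 0.75 (8.27-fold, adjusted p = 0.0107). The homeostatic values lie close together and the CD103-Klrg1- values far apart. Top2a, the topoisomerase that untangles chromosomes, stood at 11.67, 11.60 and 11.58 against 9.29 and 7.67 and rose by 3.13 ± 0.44 (adjusted p = 1.29e-04). Cdk1, Ccna2 and Ccnb2, the kinase of mitosis and its cyclins, rose by 3.27 ± 0.56, 2.57 ± 0.42 and 3.10 ± 0.53, and the kinase gene Melk by 2.27 ± 0.37. Foxm1, a transcription factor of G2 genes, was flat at 7.75, 8.07 and 8.0 against 7.91 and 8.03.

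Ube2c and Cdc20, whose promoter stretches are printed above, were among the largest rises. Ube2c, the ubiquitin-conjugating enzyme of the anaphase promoting complex, lay at 9.14, 9.47 and 9.51 against 6.30 and 4.86. The CD103-Klrg1- mean of 5.58 is below the filter of 6.27, so the fold is given as at least 8.51, with dim arrays set to the filter value, as for each such fold here (measured difference 3.79 ± 0.48, adjusted p = 3.90e-05). Cdc20, which activates that complex, stood at 10.49, 10.48 and 10.84 against 8.37 and 6.83 and rose by 3.01 ± 0.47 (adjusted p = 3.67e-04). All 4 spindle checkpoint genes rose: Bub1 (at least 3.78-fold), Bub1b (0.72 ± 0.21), Mad2l1 (2.18 ± 0.34) and Ttk (at least 2.13-fold).

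The mitotic kinases and the passenger complex, which corrects wrong attachments of chromosomes, rose in 4 of 4 genes. Aurkb lay at 9.65, 9.50 and 9.46 against 7.46 and 6.16 and rose by 2.72 ± 0.36 (adjusted p = 5.59e-05). Birc5, survivin, rose by 2.86 ± 0.49, Plk1 by 2.35 ± 0.41 and Aurka by 1.38 ± 0.29. Of 7 spindle and cytokinesis genes 5 rose, with Prc1, which bundles microtubules of the midzone, at 10.58, 10.73 and 10.63 against 8.12 and 7.37. Its rise of 2.90 ± 0.26 had the smallest p among the 49 genes (adjusted p = 1.21e-06). The other risen genes of this role were the spindle protein gene Nusap1 (3.08 ± 0.44) and the kinesin genes Kif11 (2.74 ± 0.33), Kif20a (at least 1.73-fold) and Kif23 (at least 1.86-fold), and both centromere genes rose, Cenpa by 1.5 ± 0.40 and Cenpe at least 2.88-fold.

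Of the 3 inhibitor genes 2 rose too. Cdkn1a stood at 9.67, 9.19 and 9.44 on the homeostatic Foxp3+ arrays and at 7.10 and 7.18 on the CD103-Klrg1- arrays, a rise of 2.3 ± 0.30 (4.92-fold, adjusted p = 5.76e-05). Cdkn2c rose by 1.03 ± 0.17 (adjusted p = 5.95e-04). Cdkn1b lay at 9.18, 9.24 and 9.21 against 8.68 and 9.34, so its arrays overlapped.

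Of the genes that did not pass, 3 did so by another probe set: with each of 96 probe sets of the 49 genes tested on its own among 21612, an added alternative, Cdc45 rose by 1.68 ± 0.33, Kif2c by 2.66 ± 0.50 and Tpx2 by 1.24 ± 0.19 and 1.60 ± 0.40. For Cdc45, part of the active helicase, and Kif2c, a microtubule-shortening kinesin, the chosen probe set differed by -0.15 ± 0.15 and 0.46 ± 0.20, so the probe sets of these genes disagree. They also disagree for Ccnd3, with 0.80 ± 0.46 by the chosen probe set and -3.10 ± 0.59 by another, which alone among the 96 fell. Foxm1 was flat by both of its tested probe sets, and Tyms, thymidylate synthase, has 1 tested probe set of 4, which lay below the filter in both groups.

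The calls of this comparison leaned on the 2 CD103-Klrg1- arrays, where replicate 2 was the lower for most genes. Without that array 19 of 49 genes rose, and over all genes 264 rose and 355 fell. Without homeostatic replicates 2 and 3 of both groups, an alternative chosen after the data were seen, 16 rose, with a median difference of 1.69, and over all genes 217 rose and 195 fell.

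**Figure D2:**
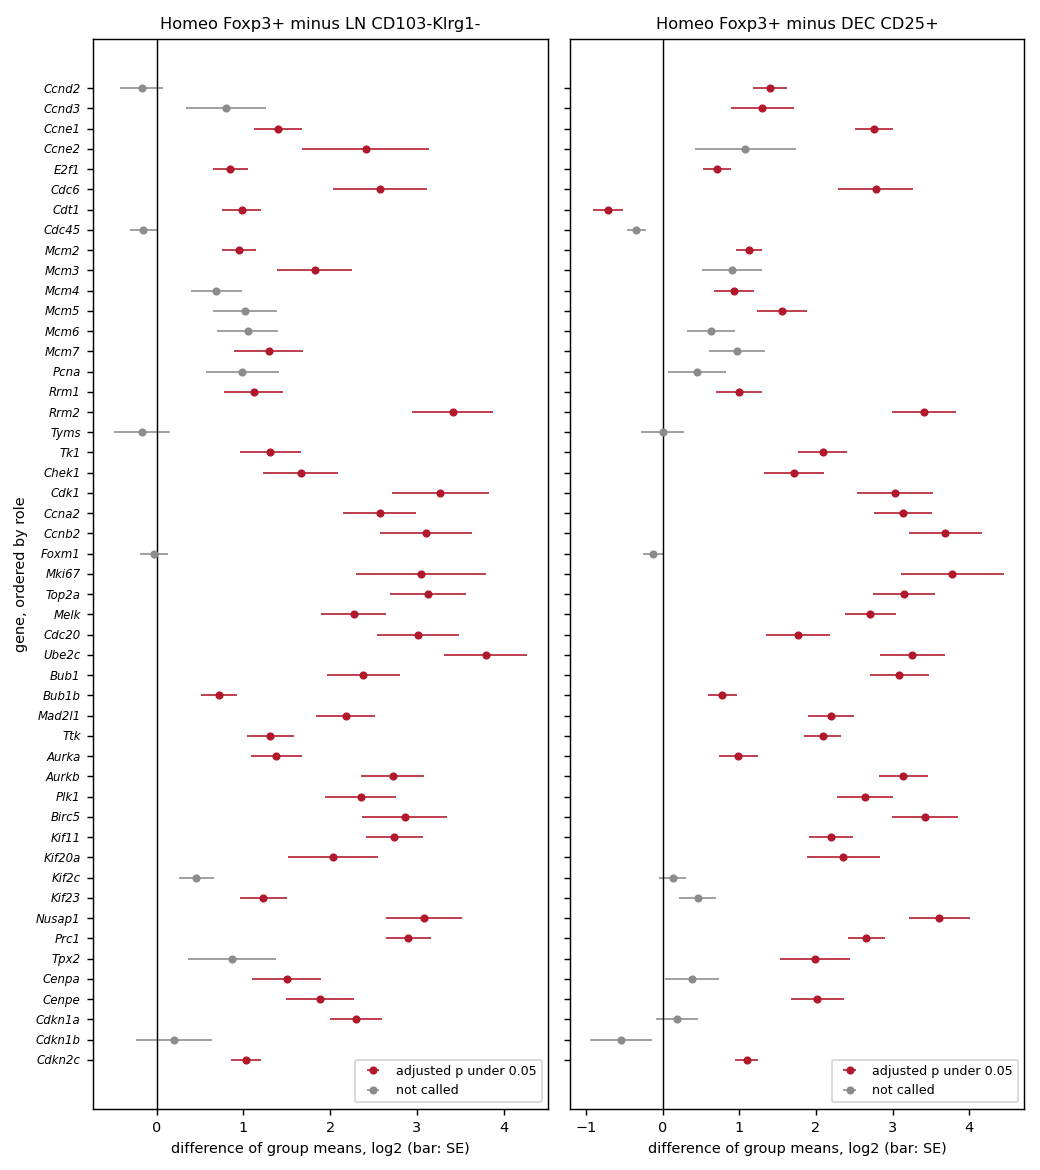
Difference of group means on the log2 scale, with its standard error as a bar, for 49 genes ordered by role. Left, homeostatic Foxp3+ (3 arrays) minus lymph node CD103-Klrg1- cells (2 arrays); right, homeostatic Foxp3+ minus DEC CD25+ cells (3 arrays). Red points have an adjusted p under 0.05; on the left 37 are right of 0 and none left of it, on the right 35 and 1, the last being Cdt1.

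Genes outside the 49 were drawn from 5 further lists, which were also chosen with earlier results of these data known. Of 40 other mitosis genes 33 rose and 0 fell in homeostatic Foxp3+ over CD103-Klrg1- cells, with a median of 1.92; examples are Cep55, needed for the final cut between daughter cells (3.23 ± 0.40), and Ect2, which sets the cleavage furrow (2.73 ± 0.37). Of 25 other replication genes 8 rose and 0 fell, with a median of 0.97, Mcm10 (1.20 ± 0.22) and the GINS subunit Gins2 (1.47 ± 0.28) among them. Of 8 S phase repair genes 5 rose, such as Clspn (1.90 ± 0.31), and of 19 other G1 and kinase control genes 5 rose and 1 fell, with E2f8, a repressor of the E2F family, at 2.80 ± 0.50. Of 11 genes that keep T cells quiescent 0 rose and 3 fell: Tsc1, which restrains the growth kinase mTOR (-1.07 ± 0.17), and the transcription factors Foxp1 (-1.39 ± 0.31) and Foxo1 (-1.03 ± 0.33).

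Markers of other cells moved with this comparison. Of 8 tested myeloid markers 4 were called higher in homeostatic Foxp3+ arrays, S100a8, S100a9, Lyz2 and Csf1r, and the mean over that list lay at 7.36 to 8.96 on these arrays against 5.90 and 6.15 on the CD103-Klrg1- arrays. The mean of the erythroid list lay at 6.80 to 8.28 against 6.71 and 6.64, with Alas2 and Slc4a1 higher and Gata1 lower, and that of the progenitor list at 6.25 to 6.71 against 5.94 and 6.10. Of the homeostatic Foxp3+ arrays, replicate 1 had the lowest myeloid and erythroid means, 7.36 and 6.80, both still above those of the CD103-Klrg1- arrays. Eomes, of the CD8 T and NK cell list, was called higher and the B cell gene Ms4a1 lower, and no T cell marker was called in either direction. What part such cells have in the result was not tested.

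Homeostatic Foxp3+ cells were next compared with DEC CD25+ cells, which were also recovered after transfer but in another system. Strain, T cell receptor, host, peptide dose, time after transfer, sorting marker and pool size differ between these systems and cannot be told apart. The Xist signal differs with them too, at 7.21 to 7.67 on the homeostatic and 11.85 to 13.25 on the DEC arrays. Of the 49 genes 35 rose and 1 fell, where 14.4% of all genes tested rose and 9.75% fell, and the median was 1.71 against 0.05 over all genes. Both comparisons use the same homeostatic Foxp3+ arrays, so they are not independent. Without homeostatic replicates 2 and 3, 24 rose and 0 fell, with a median of 1.65, and over all genes 572 rose and 280 fell. Mki67 lay at 6.68, 9.12 and 8.62 on the DEC CD25+ arrays, all below the homeostatic values of 11.86 to 11.97, and was higher in homeostatic cells by 3.78 ± 0.67 (13.7-fold, adjusted p = 5.16e-04). Its DEC values spread over more than 2 log2 units. Rrm2 lay at 8.72, 9.31 and 9.75 and was higher in homeostatic cells by 3.41 ± 0.42 (adjusted p = 1.82e-05).

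Further large differences were those of Nusap1 (3.61 ± 0.40), Ccna2 (3.14 ± 0.38), Top2a (3.15 ± 0.40), Aurkb (3.14 ± 0.32) and Cdk1 (3.03 ± 0.50), and of Ccnb2, Birc5, Ube2c and Bub1, which were at least 10.0-fold, 8.20-fold, 7.92-fold and 3.78-fold higher. Mcm5 was at 9.14, 9.59 and 9.97 on the DEC CD25+ arrays and higher in homeostatic cells by 1.56 ± 0.33 (adjusted p = 0.00243). Both D cyclins were called here: Ccnd2 lay at 11.06, 11.17 and 11.01 in DEC CD25+ cells and was 1.40 ± 0.22 higher in homeostatic cells (adjusted p = 2.09e-04), and Ccnd3 was 1.30 ± 0.41 higher by the chosen probe set, but -0.21 by the mean of its probe sets. The call of Ccnd3 was also lost without homeostatic Foxp3+ replicate 1 or 3 or DEC CD25+ replicate 1 or 3. Whether D cyclins differ between the comparisons was not tested.

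Among the licensing genes, Cdc45 lay lower in homeostatic cells by its chosen probe set without passing (-0.34), but higher by another (1.72). Cdt1 was the only gene of the 49 called lower. It lay at 11.27, 11.47 and 11.56 on the DEC CD25+ arrays, all above the 10.94, 10.45 and 10.79 of the homeostatic Foxp3+ arrays, and was lower in homeostatic cells (-0.71 ± 0.20, adjusted p = 0.0145). Both of its probe sets above the filter were called lower, the other by -0.97 ± 0.30. The call was lost without homeostatic Foxp3+ replicate 2 (adjusted p = 0.0786) and without DEC CD25+ replicate 3 (adjusted p = 0.0591), and by the mean of its probe sets (-0.46, adjusted p = 0.0509). Cdkn2c was higher in homeostatic cells by 1.10 ± 0.15, whereas Cdkn1a, at 9.25, 9.2 and 9.29 in DEC CD25+ cells, lay within the homeostatic range, and Cdkn1b, at 9.84, 9.86 and 9.53, differed by -0.54 ± 0.40 and did not pass.

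In the further lists 36 of 40 mitosis genes rose and 0 fell, 11 of 25 replication genes rose and 1 fell, 6 of 8 repair genes rose, 11 of 19 control genes rose, and of 11 quiescence genes 0 rose and 6 fell. Cep55 was at least 21.2-fold higher in homeostatic Foxp3+ cells, and Klf4, a transcription factor that restrains T cell division, was lower by -3.31 ± 0.77. Of the 8 myeloid markers 3 were called higher in homeostatic arrays and 0 lower, with list means of 7.36 to 8.96 against 6.53 to 7.23.

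The comparison of the partner groups uses none of those arrays, but cells of the same systems with the same differences between them. Since same-number arrays are read as pairs below and 1 spread per gene is shared, it is not independent of the comparison above. In homeostatic Foxp3- over DEC CD25- cells 36 of 49 genes rose and 2 fell, where 26.7% of all genes rose and 6.46% fell, and the median was 1.35 against 0.23 over all genes. That shift of all genes became 0.07 after quantile and 0.06 after cyclic loess normalization, with members' medians of 1.14 and 1.05. Called genes then split into 2696 higher and 1410 lower and into 2468 and 1497, against 3340 and 809 in the deposited scaling. Without the 2 dim DEC CD25- arrays 30 of the 49 genes rose and 1 fell, with a median of 1.07, and over all genes 2013 rose and 1257 fell. Without homeostatic replicates 2 and 3, 18 of the 49 rose and 0 fell, with a median of 1.24, and over all genes 1029 rose and 246 fell. Of 8 myeloid markers 6 and of 6 erythroid markers 5 were called higher in the homeostatic Foxp3- arrays, as were 3 of 4 progenitor markers, and their part in the result was not tested.

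Mki67 lay at 10.68, 11.75 and 10.40 in homeostatic Foxp3- cells and at 6.70, 7.87, 9.27 and 7.36 in DEC CD25- cells, a rise of 3.14 ± 0.62 (n = 3 and 4, adjusted p = 0.00102). Ccnb2 was at least 6.48-fold higher, with 8.54, 9.32 and 9.02 against 5.54, 5.17, 4.99 and 5.23. Rrm2 rose by 2.94 ± 0.40, Top2a by 2.23 ± 0.37, Mcm5 by 1.04 ± 0.31, Ccnd2 by 1.10 ± 0.21 and Ccnd3 by 1.35 ± 0.39. For each of these every homeostatic Foxp3- array lay above every DEC CD25- array, with Mcm5 at 10.33 to 10.73 against 8.99 to 9.95. That held for 35 of the 49 genes and 30.0% of all genes tested.

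The 2 genes that fell were Cdt1 and Cdkn1b. Cdt1 lay at 10.70, 10.42 and 10.28 against 11.24, 11.49, 11.72 and 11.41, a fall of -1.0 ± 0.18 (adjusted p = 5.84e-04). Cdkn1b lay at 8.72, 9.18 and 9.11 against 9.90, 9.58, 9.28 and 11.28, a fall of -1.01 ± 0.37 (adjusted p = 0.0455) in which DEC CD25- replicate 4 stands far above the rest. Its call was lost without that array (-0.59, adjusted p = 0.133), without both dim arrays (-0.74, adjusted p = 0.0897) and without homeostatic Foxp3- replicate 1, 2 or 3 or DEC CD25- replicate 1. Cdkn1a did not differ beyond its error, at 8.90, 9.2 and 8.62 against 9.15, 9.11, 8.19 and 9.19 (-0.00 ± 0.25).

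**Figure D3:**
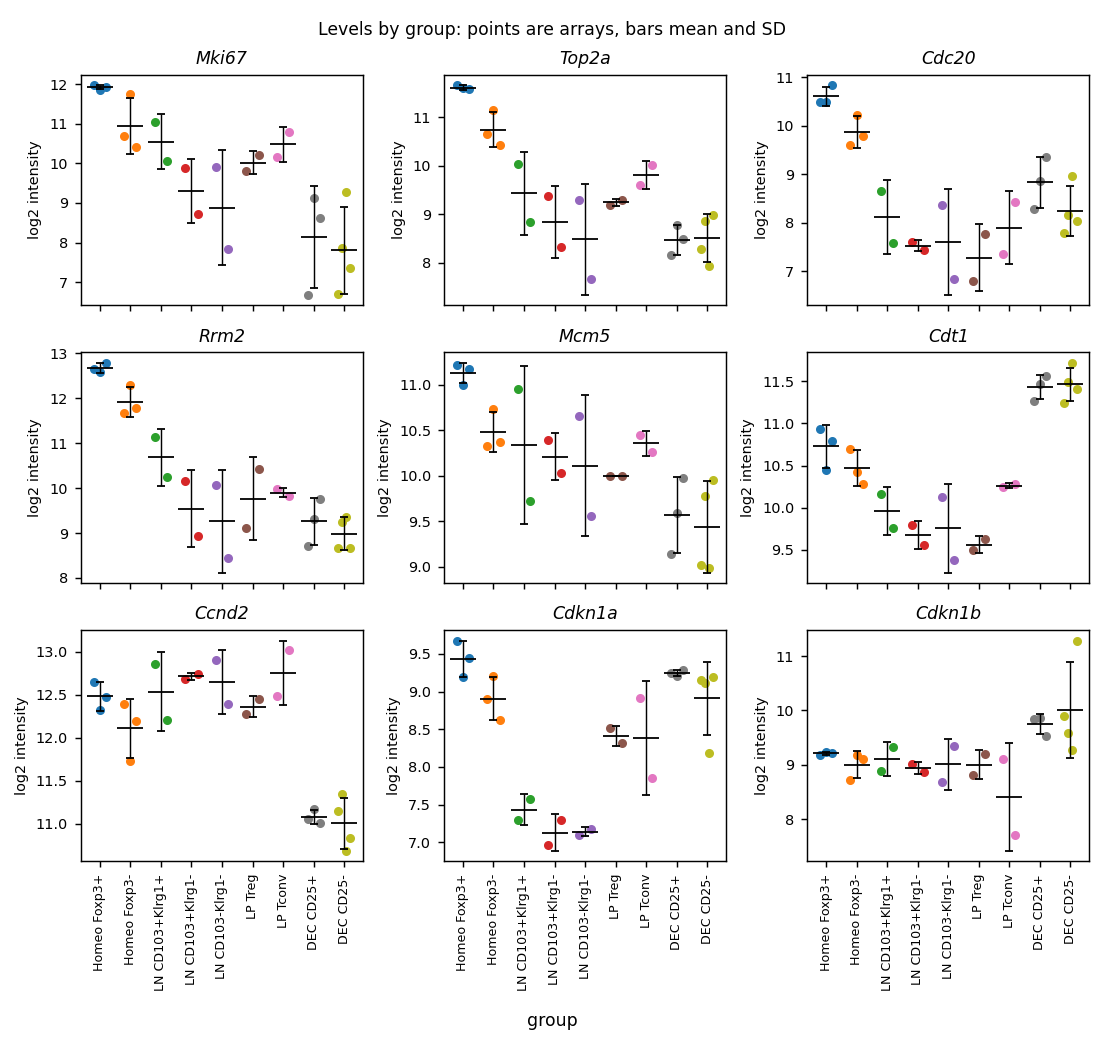
Log2 intensity of 9 cell cycle genes by group; points are arrays, the wide bar is the group mean and the thin bar its SD. Mki67, Top2a, Cdc20, Rrm2 and Mcm5 have their highest means in the homeostatic groups, Cdt1 and Cdkn1b theirs in the DEC groups, and the lymph node groups have the lowest Cdkn1a.

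Within a system, the arrays ask whether Foxp3+ or CD25+ cells differ from their partners in the cell cycle. In homeostatic cells 48 of 49 genes had the higher mean in Foxp3+ cells, against 44.2% of all genes tested, with a median difference of 0.58 against -0.03. By limma over all 23 arrays, 0 of the 49 passed, where 1.76% of all genes did, and 16 had an unadjusted p under 0.05 against 7.57% of all genes. In 34 genes every Foxp3+ array lay above every Foxp3- array, which held for 9.38% of all genes tested.

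The same-number arrays of these groups deviated together from their group means over the tested genes (correlations of 0.66, 0.58 and 0.49) and were read as pairs. With the number as a block, 7 of 49 genes rose, where 3.84% of all genes were called: Bub1 (1.25 ± 0.25, adjusted p = 0.0202), Melk (1.23 ± 0.23), Aurkb (1.15 ± 0.20), Cdc6 (1.01 ± 0.22), Top2a (0.87 ± 0.19), Nusap1 (0.81 ± 0.18) and Prc1 (0.80 ± 0.15). Fitted on the 6 arrays alone without pairing, 14 rose, in a fit that called 312 genes higher and 429 lower of all those tested. Bub1 lay at 8.22, 8.13 and 8.21 in Foxp3+ and at 6.28, 7.55 and 6.99 in Foxp3- cells. Aurkb lay at 9.65, 9.50 and 9.46 against 8.21, 8.77 and 8.18, so in both genes Foxp3- replicate 2 came nearest to the Foxp3+ arrays.

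That held for the list: Foxp3- replicate 2 exceeded replicates 1 and 3 in 40 of 49 genes, against 27.2% of all genes, and the median of Foxp3+ minus Foxp3- was 0.88, 0.28 and 0.82 in the pairs numbered 1, 2 and 3. Foxp3- replicate 2 also had the highest myeloid and erythroid means of all arrays, 9.51 and 8.53, and the part of such cells was not tested. The fixed genes that did not pass with or without the block were Mki67 (0.98 ± 0.67), Rrm2 (0.75 ± 0.42), Mcm5 (0.65 ± 0.33), Ccnd2 (0.37 ± 0.22), Ccnd3 (0.04 ± 0.41), Cdkn1a (0.53 ± 0.27), Cdkn1b (0.21 ± 0.40) and Cdkn2c (0.39 ± 0.15).

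**Figure D4:**
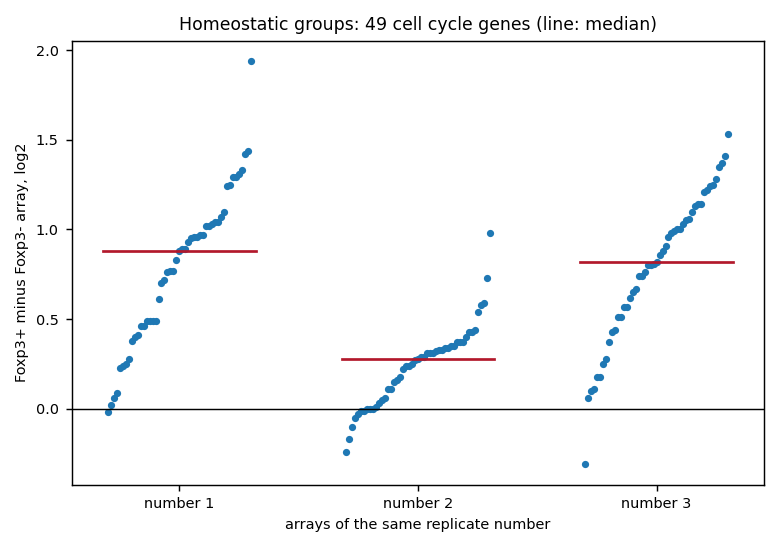
Difference between the homeostatic Foxp3+ and Foxp3- array of the same replicate number for 49 cell cycle genes, on the log2 scale; each point is a gene, sorted within a pair, and the red line is the median. Nearly all points lie above 0 in the pairs numbered 1 and 3 (48 of 49 each) and 40 of 49 do in number 2, where the median is lowest.

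DEC CD25+ cells did not differ from CD25- cells in any of the 49 genes by limma, where 0.495% of all genes did (7 genes had an unadjusted p under 0.05, against 14.8%). The median difference of the 49 was 0.32 against 0.16 over all genes, and 0.13 against 0.00 without the 2 dim CD25- arrays. All genes called split into 50 higher and 12 lower, and into 44 and 39 after quantile and 38 and 35 after cyclic loess normalization, where the members' medians were 0.06 and 0.08. With the replicate number as a block, which pairs these arrays as well (correlations of 0.39, 0.51 and 0.38), the count stayed at 0. Mki67 lay at 6.68, 9.12 and 8.62 against 6.70, 7.87, 9.27 and 7.36 and Rrm2 at 8.72, 9.31 and 9.75 against 8.66, 9.25, 9.35 and 8.67, so both overlap. Cdk6, a G1 kinase of the further lists, was higher in CD25+ cells by 1.33 ± 0.26 (adjusted p = 0.0258).

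In the gut, LP Treg cells tended to lie below LP Tconv cells: 15 of 49 genes had the higher mean in Treg cells, against 48.8% of all genes, with a median of -0.21 against -0.01. No gene of the 49 passed, where 2.70% of all genes did (1.41% higher and 1.29% lower in Treg cells), and 4 had an unadjusted p under 0.05 against 8.71%. Mki67 lay at 9.81 and 10.22 in Treg and at 10.17 and 10.79 in Tconv cells, and Top2a at 9.19 and 9.30 against 9.61 and 10.02. The Tconv arrays were unlike each other: replicate 2 exceeded replicate 1 in 36 of 49 genes, against 57.1% of all genes, by as much as Kif20a at 7.14 and 4.64. That no gene passed also depended on Tconv replicate 1, without which the Tconv group holds 1 array. Cdkn2c lay higher in Treg cells, at 9.17 and 9.56 against 8.73 and 8.66, but did not pass (0.67 ± 0.19, adjusted p = 0.0776). Of the further lists 1 gene was called, the helicase gene Blm (-1.34 ± 0.30).

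The partner differences themselves were compared between systems. For 0 of 49 genes did the Treg with partner difference differ between homeostatic and DEC, homeostatic and LP, or LP and DEC cells by limma's interaction test, where 0.336% (0.0799% with the larger difference in homeostatic cells), 0.775% and 1.01% of all genes did. The split of those genes into higher and lower depends on the scaling: 10 and 32, 27 and 70, and 51 and 75 as deposited, 26 and 31, 50 and 82, and 80 and 69 after cyclic loess normalization, with 0 of the 49 genes among them in both. The replicate number was also fitted as a block in each system, although LP arrays of the same number did not deviate together (correlation -0.068). Then 2 of the 49 were called between homeostatic and LP cells, Prc1 (1.17 ± 0.24, adjusted p = 0.0357) and Top2a (1.44 ± 0.29, adjusted p = 0.0361), where 1.73% of all genes were. At an unadjusted p under 0.05, 13 of 49 genes differed between the homeostatic and the LP contrast, against 5.51% of all genes, and 3 and 6 in the others, against 8.41% and 9.50%.

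Among lymph node Treg cells, the CD103+Klrg1+ subset had a higher mean than CD103-Klrg1- cells in 41 of 49 genes, against 47.6% of all genes tested, while Ccnd2, Ccnd3, Mcm2 and Pcna were among the 8 with a lower mean. It exceeded both other subsets at both replicate numbers in 27 of 49 genes, against 18.0% of all genes tested. In 9 of 49 genes (18.4%) both of its arrays lay above both CD103-Klrg1- arrays, against 18.0% of all genes, a share near that background. Over CD103-Klrg1- cells 2 genes rose, where 1.47% of all genes did, and 0 fell, where 0.631% did (2.10% in either direction); 4 of 49 (8.16%) had an unadjusted p under 0.05, where 6.81% of all genes did. The median was 0.36 against -0.01. Cdkn2c, the p18 inhibitor of Cdk4 and Cdk6, lay at 8.56 and 8.34 in CD103-Klrg1-, 9.27 and 9.29 in CD103+Klrg1- and 9.97 and 10.19 in CD103+Klrg1+ cells. No arrays of 2 subsets overlap, and the step over both subsets was 1.63 ± 0.19 (3.10-fold, adjusted p = 4.60e-05). Of all 9 groups, CD103+Klrg1+ cells had the highest mean of Cdkn2c, and theirs was the top mean for no other gene of the 49.

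Prc1 lay at 8.12 and 7.37, at 8.24 and 8.01 and at 9.64 and 8.99 in the same order, a rise of 1.57 ± 0.29 over both steps (adjusted p = 0.00393). The call was lost without CD103-Klrg1- replicate 2 (adjusted p = 0.133), without CD103+Klrg1+ replicate 1 (adjusted p = 0.13) and with the groups fitted alone (adjusted p = 0.117). Mki67 lay at 9.90 and 7.85, at 9.87 and 8.73 and at 11.04 and 10.06, a difference over both steps of 1.68 ± 0.82 that did not pass (adjusted p = 0.778). Rrm2 lay at 10.07 and 8.45, 10.15 and 8.93, and 11.13 and 10.24, and differed by 1.43 ± 0.52 (adjusted p = 0.321 without a replicate block). In both genes the CD103+Klrg1+ arrays are above those of the other subsets, and the spread within a subset is about as large as the step.

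That spread follows the replicate number. With the number as a block, 5 of 49 genes were called over both steps (Cdc6, Cdkn2c, Prc1, Rrm2 and Top2a), where 3.62% of all genes were. Of the step from CD103+Klrg1- to CD103+Klrg1+ cells 2 were called, where 1.09% of all genes were. With 2 arrays in a subset, the data cannot settle whether same-number arrays are pairs. In 34 of 49 genes replicate 1 was above replicate 2 in all 3 subsets, against 26.5% of all genes tested, and the median gap was 0.75 in CD103-Klrg1-, 0.34 in CD103+Klrg1- and 0.74 in CD103+Klrg1+ cells, against 0.04, -0.00 and 0.03 over all genes. Without a replicate block, single steps were not called for any of the 49: in CD103+Klrg1- over CD103-Klrg1- cells 0.0959% of all genes were called (0.0879% higher, 0.00799% lower) and 1 of 49 had an unadjusted p under 0.05 (2.04% of all genes), and in CD103+Klrg1+ over CD103+Klrg1- cells 0.647% and 5 of 49 (3.83%). In the further lists 0 genes were called among these subsets, and the 40 other mitosis genes had a median of 0.66 over both steps. B cell markers were present in these sorts, with list means of 7.61 and 8.25 in CD103+Klrg1+, 7.41 and 6.85 in CD103+Klrg1- and 7.45 and 7.39 in CD103-Klrg1- cells, against 5.91 to 6.91 elsewhere. Their part in these differences was not tested.

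**Figure D5:**
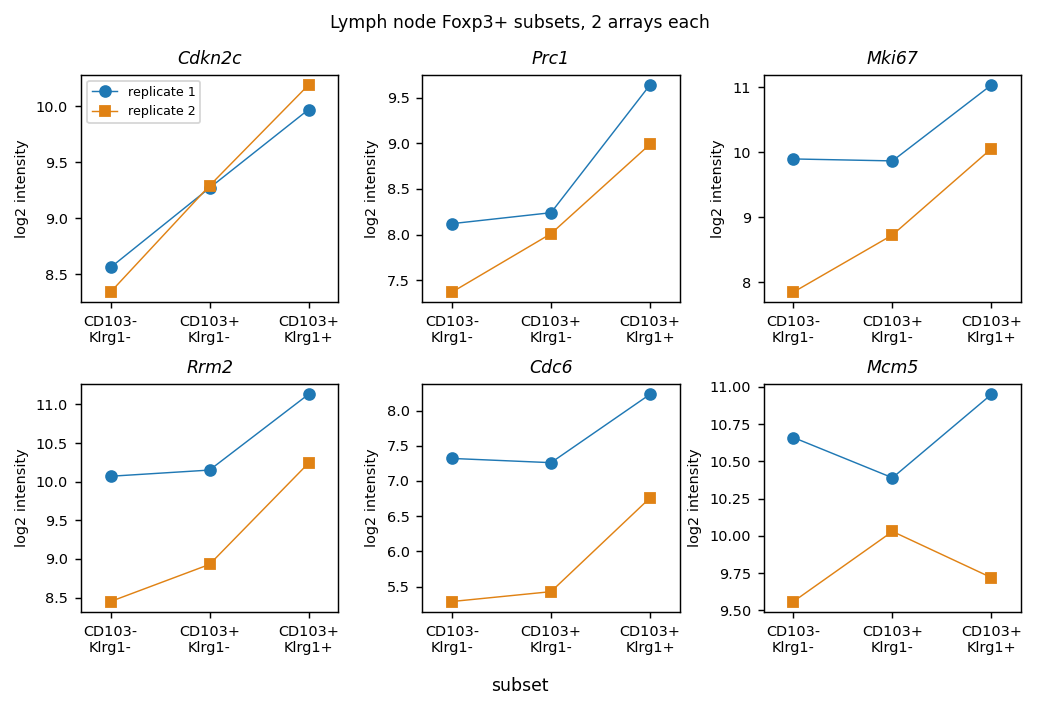
Log2 intensity of 6 genes in the 3 lymph node Treg subsets, 2 arrays each; lines join arrays of the same replicate number, which the labels do not call paired. Cdkn2c rises in steps at both numbers, while replicate 1 lies above replicate 2 in Prc1, Mki67, Rrm2, Cdc6 and Mcm5.

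LP Treg cells were last set against CD103-Klrg1- cells, to compare Treg cells of the gut and of lymph nodes. Of 49 genes 3 rose, where 2.43% of all genes did and 4.55% were called in either direction, and 0 fell. The median was 0.32 against 0.05. Cdkn1a lay at 8.51 and 8.32 against 7.10 and 7.18 (1.28 ± 0.33, adjusted p = 0.0323), Cdkn2c at 9.17 and 9.56 against 8.56 and 8.34 (0.91 ± 0.19, adjusted p = 0.00649) and Prc1 at 8.68 and 8.89 against 8.12 and 7.37 (1.04 ± 0.29, adjusted p = 0.0471). The calls rest on 2 arrays in each group, and they did not all hold when 1 array was left out. The 2 groups fitted alone gave 1 higher and 1 lower, where 8.04% of all genes were called (489 higher and 517 lower). The mean of the plasma cell list was 7.80 and 7.34 in LP Treg against 6.12 and 6.19 in CD103-Klrg1- arrays, and that of the B cell list 6.23 and 6.35 against 7.45 and 7.39, and their part in the result was not tested. Mki67, at 9.81 and 10.22 against 9.90 and 7.85, did not pass. Of the further lists the replication ligase Lig1 (1.57 ± 0.33) and Racgap1, a partner of Ect2 in cytokinesis (1.52 ± 0.30), rose and Foxp1 fell (-2.11 ± 0.34).

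Cdkn1a separated the groups in another way than the genes of division. It was at 6.96 to 7.58 on the 6 lymph node arrays and at 7.85 or above on each of the other 17, with group means of 8.41 in LP Treg, 8.39 in LP Tconv, 8.91 and 9.44 in homeostatic Foxp3- and Foxp3+ and 8.91 and 9.25 in DEC CD25- and CD25+ cells. DEC cells thus had Cdkn1a as high as homeostatic cells, whose mean Mki67 was 3.78 higher in the Foxp3+ and 3.14 higher in the Foxp3- comparison.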

How the data were processed

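The authors preprocessed the arrays (Affymetrix M430v2) with RMA in GenePattern, version not given in the sources used here, and deposited linear intensity values, per the labels and the series' design text. Per the labels' protocols, RNA was amplified in 2 rounds. Log2 was taken with no pseudocount, so no further normalization was added. For each gene the probe set with the highest mean log2 over 23 arrays was kept (34945 of 45101 probe sets carry 1 symbol in the platform annotation). Genes were tested where a group mean exceeded the median of all values (log2 6.27, intensity 77.0). limma 3.58.1 in R 4.3.3 fitted a mean for each of 9 groups to all 23 arrays (14 residual and 3.48 prior degrees of freedom). p-values are two-sided and Benjamini-Hochberg adjusted over 12516 genes in each comparison; called means under 0.05. Tables and figures came from Python 3.11.15, pandas 2.3.3, numpy 2.4.6 and matplotlib 3.10.9.

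The genes, the further lists and the comparisons were chosen with earlier results of these data known. Up to 12 called members with the largest differences in each direction, the fixed genes (Mki67, Top2a, Ccnb1, Mcm5, Rrm2, Ccnd2, Ccnd3, Cdkn1a, Cdkn1b, Cdkn2c), and up to 4 called genes per further list with the smallest p, were named, and any member may be. Same-number arrays were read as pairs in the homeostatic and DEC groups, from the correlations given there, an assumption the labels do not settle. The number of arrays limits precision, as do dim arrays and values near the filter, and p-values rest on the spread between pools. Whether pools shared animals is not given in the sources used here.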

Additional observations from a re-analysis of the deposited data

Results flagged for a closer look

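Of the 49 genes and their average, 2 had 1 DEC CD25- array far from the other 3 (Dixon's gap over range, 0.92 and 0.91; chance passes its critical value in about 1 of 20 groups, and 50 were looked at). Cdkn1a was lowest on replicate 3, at 8.19, with the others at 9.11 to 9.19. Kif2c was lowest on replicate 4, at 6.80, with the others at 7.33 to 7.38. These are the dim arrays of that group. No other group holds 4 or more arrays, and no gene of the 49 passed the test of a difference between systems in the fit of all arrays without a replicate block.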

How the results depend on the processing

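Counts of the 49 genes called were compared under a mean of each gene's probe sets, no filter, quantile or cyclic loess normalization, a fit of the compared groups alone, the replicate block (within systems only) and without the 2 dim DEC CD25- arrays. Leaving out homeostatic replicates 2 and 3, and testing every probe set, were chosen after the data were seen. With the replicate block, 2 genes were called between LP Treg and Tconv (Cdkn2c and Cdt1), where 4.91% of all genes were. Between the homeostatic groups 7 were called, where 3.84% were. For CD103+Klrg1+ over CD103+Klrg1- cells 2 were called (1.09% of all genes). Over CD103-Klrg1- cells 5 were, Cdc6, Cdkn2c, Prc1, Rrm2 and Top2a (3.62%). In the difference between the homeostatic and LP contrasts 2 were called, Prc1 and Top2a (1.73%). The block moved no other count. LP and lymph node arrays share only a number (LP correlation -0.068; every lymph node array correlates best with its own number). LP Treg over Tconv otherwise gave 1 with the mean of probe sets (209 of all genes higher, 185 lower) and 2 without the dim arrays (4.45% of all genes). The homeostatic pair gave 1 with quantile (131 of all genes higher, 170 lower) and 2 with loess (129 and 165). It gave 14 with the groups alone (5.92% of all genes) and 1 without the dim arrays (3.48%). CD103+Klrg1+ over CD103+Klrg1- gave 1 each with the mean of probe sets (46 of all genes higher, 33 lower), loess (58 and 39) and no dim arrays (1.07%). Over CD103-Klrg1- it gave 1 with the groups alone (2.13% of all genes). Without homeostatic replicates 2 and 3, homeostatic Foxp3+ over CD103-Klrg1- gave 16 and Foxp3- over DEC CD25- 18. With 1 array left out, counts ran from 0 to 3 for LP (3 without Tconv replicate 1), 1 to 2 for CD103+Klrg1+ over CD103-Klrg1-, 0 to 2 for LP Treg over CD103-Klrg1-, 19 to 37, 33 to 35 and 30 to 37 for the 3 comparisons with homeostatic cells above, 36 to 43 for the F test, and 0 to 2 for the homeostatic with LP and the LP with DEC contrasts (2 without Tconv replicate 1). Ccnd3 in homeostatic Foxp3+ over DEC CD25+ cells changed sign with the mean of probe sets (-0.21). Where a group holds 2 arrays, a count with 1 left out rests on 1 array in that group. The cause of these changes was not tested. Of 116 called gene results 58 lost their call in at least 1 setting. Groups of 2 arrays and values near the filter limit what can be seen.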
